A study of Sus scrofa with 9 samples.

Results

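The 84 genes described here encode transcription factors and partner proteins that lay out the body plan: 23 HOX genes, 23 forkhead (FOX) genes, 9 T-box (TBX) genes, 8 LHX and LBX genes, 6 genes of the sine oculis homeobox and eyes absent (EYA) families, 4 MEIS and PBX genes, 4 DLX and MSX genes, 3 TSHZ genes, 2 MEOX genes and 2 PITX and PRRX genes. They were chosen by gene symbol alone, leaving out the cell cycle factor FOXM1, and each has 1 entry among the 19643 entries of the expression table. RNA was sequenced from the longissimus dorsi, the long muscle along the back, of embryonic pigs of 3 breeds with 3 libraries each. The Tibetan pig and the Wujin pig are labelled as indigenous Chinese breeds, and the Large White is a breed kept worldwide for fast lean growth. No treatment, allele, sex or gestational day is given for any group, and embryonic longissimus dorsi is what all 3 share. Values are listed in the order Tibetan 1, 2 and 3, Wujin 1, a and b, and Large White 1, 2 and 3, where a and b are the Wujin libraries that carry no distinct number. Only 56.9% of the entries have a symbol, so relatives such as further MEIS, PBX, EYA or PITX genes may stand among the entries without one.

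HOX genes lie in 4 clusters, and their order along a cluster matches the order in which they are used from head to tail, so that the paralog number acts as an address along the body axis. Retinoic acid opens the clusters and Polycomb complexes keep unused members silent, while PBX and MEIS proteins bind DNA together with HOX proteins. In the muscle lineage, MEOX, sine oculis and EYA factors act upstream of the myogenic regulators, LBX1 and PITX factors mark muscle precursors, and T-box, PRRX and TSHZ factors are best known from connective tissue and limb. The FOXO branch of the forkhead family is held in check by insulin and growth factor signals and switches on atrophy and fasting genes in muscle.

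Expression was given as FPKM, fragments scaled to the length of the transcript and the size of the library. Library totals lay between 505042 and 677783 FPKM, and steps between low values put the relative sequencing depth of the others at up to 1.22 times that of Large White 1. Fragment counts cannot be read from these values. The typical gene was lower in Tibetan libraries, with a median of 3.15 to 3.61 FPKM over the 13106 genes tested, against medians from 4.84 to 6.27 for Wujin and from 6.72 to 7.20 for Large White. Fitted log2 changes of FPKM + 1 therefore had a median over all genes of -0.77 for Tibetan minus Large White, -0.55 for Tibetan minus Wujin and -0.20 for Wujin minus Large White. For this reason a relative change, the fitted change minus that median, is printed beside the fitted one, and calls are also given after median-ratio scaling, which divides each library by its median ratio to the average library. The labelled tissue was borne out by its markers: the sum of the 12 matched muscle fibre genes ranged from 38227 to 89424 FPKM among Tibetan, from 21977 to 24856 among Wujin and from 12209 to 16055 among Large White libraries. Other cell types differed between the breeds as well. For the 11 connective tissue fibroblast markers the sum ranged from 335.5 to 375.3 FPKM among Tibetan, from 3175.0 to 5773.6 among Wujin and from 5579.8 to 6216.0 among Large White libraries. For the 13 cell cycle markers these ranges were 3.12 to 4.58, 114.6 to 138.4 and 175.0 to 184.6 FPKM. In a bulk sample, fewer cells of a type and less RNA per cell cannot be told apart, and the part these cell types play in the values below was not tested. Gestational day is not given, so a difference of stage between the breeds cannot be told apart from a difference of breed. The labels do not state that each library is a different animal, and p-values then measure only how far these libraries scatter, which can be technical.

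Most of the patterning genes were lower in Tibetan muscle than in either other breed, but so were most genes. Of the 84, 46 reached a mean of 1 FPKM across the libraries, the level set for testing, and the other 38 were below it. Against Large White, 33 of the 46 fell and 1, FOXO1, rose, where 63.2% of all genes tested fell and 13.0% rose (limma, adjusted p under 0.05). Against Wujin, 34 fell and 2, FOXO1 and HOXC6, rose, where 53.9% of all genes fell and 13.8% rose. The median fitted change of the 46 was -0.97 against Large White and -0.94 against Wujin. Among them, 12 passed the filter only through Wujin and Large White (EYA2, HOXA3, HOXA9, HOXA10, HOXB3, HOXB4, HOXB6, LHX6, PBX3, PBX4, TBX18 and TSHZ3) and so had to be lower in Tibetan libraries. With no filter, 42 of the 84 fell and 4 rose against Large White (50.9% and 10.4% of all 19643 genes), and 41 fell and 5 rose against Wujin (42.1% and 10.5%). The Tibetan libraries are shared by both comparisons, which are therefore not independent.

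After median-ratio scaling the split changed: 17 fell and 11 rose against Large White, where 33.0% of all genes fell and 32.4% rose, and 21 fell and 6 rose against Wujin, where 30.4% fell and 30.9% rose. The scaled median of the 46 was -0.29 and -0.48. The 3 PBX genes, both MEOX genes, EYA2 and EYA3, TBX18, TSHZ2, TSHZ3, FOXP1, HOXA5, HOXA10 and 4 of the 5 tested anterior HOX genes were still lower than in Large White, whereas the 11 higher genes included 5 of the 10 tested forkhead genes and HOXA7, HOXB7, HOXC6, HOXD9 and LBX1. Of those lower genes, PBX3, PBX4, EYA2, TBX18, TSHZ3, HOXA10, HOXA3 and HOXB3 are among the 12 that passed the filter only through the other breeds, and no difference between families was tested. After quantile normalization, which gives all libraries the same distribution, 11 fell and 9 rose against Large White, where 31.4% of all genes fell and 31.7% rose, and 19 fell and 8 rose against Wujin, where 29.7% fell and 29.6% rose. In an F test over all 3 breeds 38 of the 46 were called, against 77.6% of all genes. By breed mean, 25 of the 46 ran from Tibetan through Wujin to Large White, and 13 were lowest in Tibetan and highest in Wujin. The library medians over all genes tested ran in the first order too, and the filter fixed Tibetan as lowest for 12 of the 46. The share of all genes with each order was not computed, so these counts are no result about the patterning genes.

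**Figure D1:**
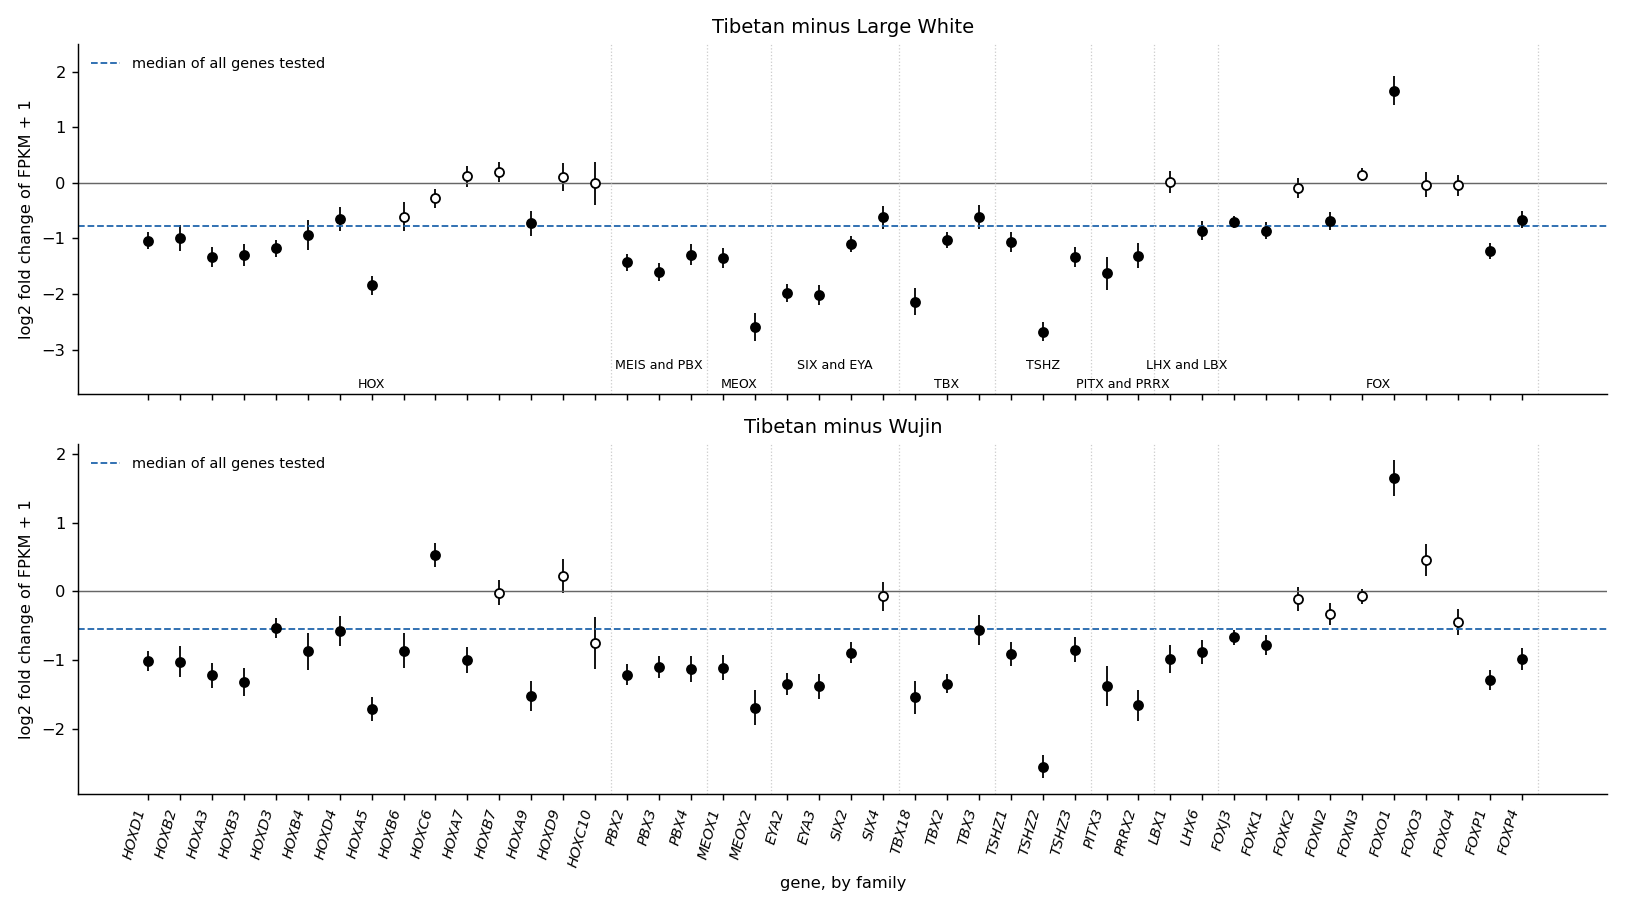
Fitted log2 fold change of FPKM + 1 with its standard error for 44 tested genes, grouped by family, for Tibetan minus Large White (top) and Tibetan minus Wujin (bottom). Filled points passed the test and open points did not, the dashed line is the median of all genes tested, HOXA10 is left out because it is listed at 0 in every Tibetan library, and 1 further tested gene is not shown. FOXO1 stands above 0 in both panels, and MEOX2 and TSHZ2 are among the points farthest below the dashed line.

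Of the HOX genes, 5 anterior members (paralog groups 1 to 3), 7 central members (groups 4 to 8) and 4 posterior members (groups 9 to 11) were tested. Against Large White, 5 of 5 anterior, 3 of 7 central and 2 of 4 posterior members fell, where 63.2% of all genes did, and against Wujin 5 of 5, 5 of 7 and 2 of 4, where 53.9% did. HOXA3 and HOXB3 among the anterior, HOXB4 and HOXB6 among the central and HOXA9 and HOXA10 among the posterior members passed the filter only through Wujin and Large White. After median-ratio scaling 4 of 5 anterior members were still lower than in Large White and 3 of 5 lower than in Wujin, while 3 central and 1 posterior member were higher than in Large White. Quantile normalization ended the anterior calls against Large White: none of the 5 passed (limma, median change -0.31), 1 was lower at an unadjusted p under 0.05, and 2 of 5, HOXA3 and HOXB3, were still lower than in Wujin. Strand use in counting is not given, so reads of antisense transcripts inside the clusters cannot be told apart from those of the genes. The level along the back at which each sample was taken is not given either, so it cannot be told apart from breed or library.

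Summed over its 7 genes, the anterior group reached 5.49, 6.73 and 6.28 FPKM in the Tibetan libraries, 18.3, 16.5 and 17.0 in Wujin and 19.1, 24.0 and 19.8 in Large White. The Tibetan sums were all below the other 6, and Wujin and Large White lay close to each other. The 9 central genes summed to 29.4, 25.2 and 27.6 FPKM in Tibetan, 46.4, 46.7 and 43.4 in Wujin and 47.0, 39.7 and 52.1 in Large White libraries. The 7 posterior genes summed to 15.3, 7.90 and 13.3 FPKM in Tibetan, 25.1, 29.4 and 23.1 in Wujin and 11.7, 10.2 and 25.5 in Large White libraries. For the posterior genes the Large White libraries disagreed among themselves, since 2 lay within the Tibetan range and Large White 3 within the Wujin range. As a share of the whole HOX sum, which library scaling does not touch, posterior genes made up 30.6%, 19.8% and 28.3% in Tibetan, 28.0%, 31.7% and 27.7% in Wujin, and 15.0%, 13.8% and 26.2% in Large White libraries.

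**Figure D2:**
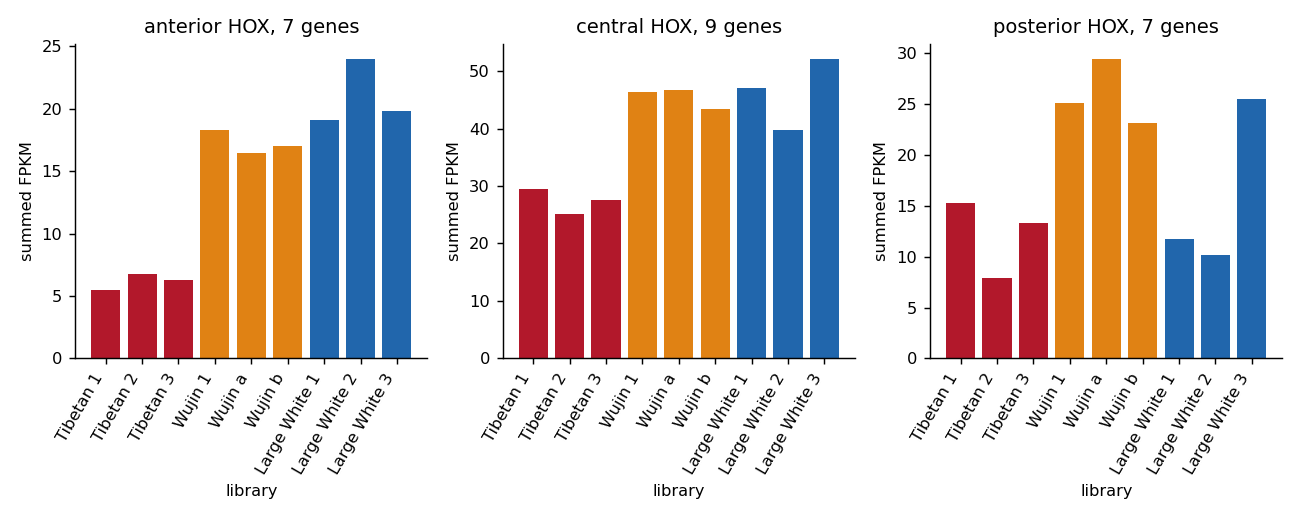
Summed FPKM of the 7 anterior, 9 central and 7 posterior HOX genes in each of the 9 libraries, with 1 bar per library coloured by breed and separate linear axes from 0. The Tibetan bars are the lowest for anterior and central genes, and the posterior sum of Large White 3, at 25.5 FPKM, is more than those of Large White 1 and 2 together.

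HOXA5, a central gene known for patterning the neck and upper trunk, stood at 2.78, 3.78 and 3.35 FPKM in Tibetan, 12.6, 15.4 and 11.3 in Wujin and 14.8, 11.8 and 16.8 in Large White libraries. It had the highest mean of the HOX genes in Wujin and in Large White muscle, 13.1 ± 2.11 and 14.5 ± 2.55 FPKM, but in Tibetan muscle, at 3.30 ± 0.504, it lay below HOXC6, HOXC10, HOXA7, HOXD9 and HOXD4. The change of HOXA5 was -1.84 ± 0.17 against Large White (relative -1.07, adjusted p = 9.79e-06) and -1.71 ± 0.17 against Wujin (relative -1.16, adjusted p = 2.06e-05). Of the tested HOX genes with values above 0 in Tibetan muscle, none had a lower fitted change in either comparison.

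HOXC6, whose product marks the thoracic region, behaved differently: it stood at 11.3, 11.1 and 12.1 FPKM in Tibetan, 7.43, 6.92 and 8.67 in Wujin and 18.1, 11.1 and 14.0 in Large White libraries. The Wujin libraries were the lowest, and the Tibetan and Large White values overlapped. HOXC6 was higher in Tibetan than in Wujin muscle by 0.53 ± 0.17 (relative 1.08, adjusted p = 0.0194), a call that was lost without Tibetan 3 or Wujin a and when FPKM totals were made equal. After median-ratio scaling it was higher in Tibetan muscle in both comparisons, by 1.21 ± 0.17 over Wujin and 0.63 ± 0.17 over Large White.

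HOXA7, a trunk gene of the A cluster, stood at 7.31, 4.29 and 6.74 FPKM in Tibetan, 12.1, 13.5 and 13.3 in Wujin and 4.92, 4.68 and 6.94 in Large White libraries. Here Wujin was the breed apart. Tibetan minus Wujin was -1.0 ± 0.19 (relative -0.45, adjusted p = 0.00143) but -0.34 ± 0.17 after median-ratio scaling (adjusted p = 0.105), and Tibetan minus Large White was 0.12 ± 0.19 (relative 0.89, adjusted p = 0.601). HOXB7, the matching gene of the B cluster, was low in every breed, at 1.32 ± 0.459, 1.34 ± 0.318 and 1.02 ± 0.187 FPKM in Tibetan, Wujin and Large White (mean ± SD, n = 3). HOXD4 averaged 3.49 ± 1.12, 5.56 ± 0.513 and 6.01 ± 1.71 FPKM, and its fall of -0.65 ± 0.22 against Large White (adjusted p = 0.0232) sat near the shift of all genes, with a relative change of 0.12 and a scaled change of 0.14. HOXB4 and HOXB6 averaged 0.495 ± 0.307 and 0.818 ± 0.156 FPKM in Tibetan libraries against 1.72 ± 0.513 and 2.34 ± 0.764 in Wujin, and neither was called after median-ratio scaling in either Tibetan comparison.

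Of the anterior genes, HOXD3 had the highest mean in Tibetan and Large White muscle, with 2.39, 2.53 and 1.58 FPKM in Tibetan, 3.21, 3.91 and 3.51 in Wujin and 6.63, 5.35 and 6.39 in Large White libraries. Its values formed 3 levels that did not overlap. The change was -1.18 ± 0.15 against Large White (relative -0.41, adjusted p = 8.99e-05) and -0.53 ± 0.15 against Wujin (relative 0.02, adjusted p = 0.0119), and the latter was 0.01 after median-ratio scaling. HOXA3, which patterns the pharyngeal arches and neck, stood at 0.616, 0.883 and 1.06 FPKM in Tibetan, 3.09, 3.22 and 3.59 in Wujin and 2.63, 4.89 and 3.69 in Large White libraries. HOXB3, its counterpart in the B cluster, was likewise lowest in Tibetan libraries, with means of 0.543 ± 0.104, 2.88 ± 0.571 and 2.87 ± 0.998 FPKM. The changes against Large White were -1.33 ± 0.18 for HOXA3 (relative -0.56) and -1.30 ± 0.20 for HOXB3 (relative -0.52). Both passed the filter only through Wujin and Large White, which fixed their direction. HOXB2, a hindbrain gene, averaged 1.33 ± 0.649, 3.67 ± 0.910 and 3.54 ± 0.716 FPKM, and HOXD1 1.04 ± 0.303, 3.08 ± 0.0214 and 3.18 ± 0.550 FPKM, with changes against Large White of -0.99 ± 0.23 and -1.04 ± 0.15. HOXB2 was not called after median-ratio scaling (-0.33 ± 0.28, adjusted p = 0.324).

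**Figure D3:**
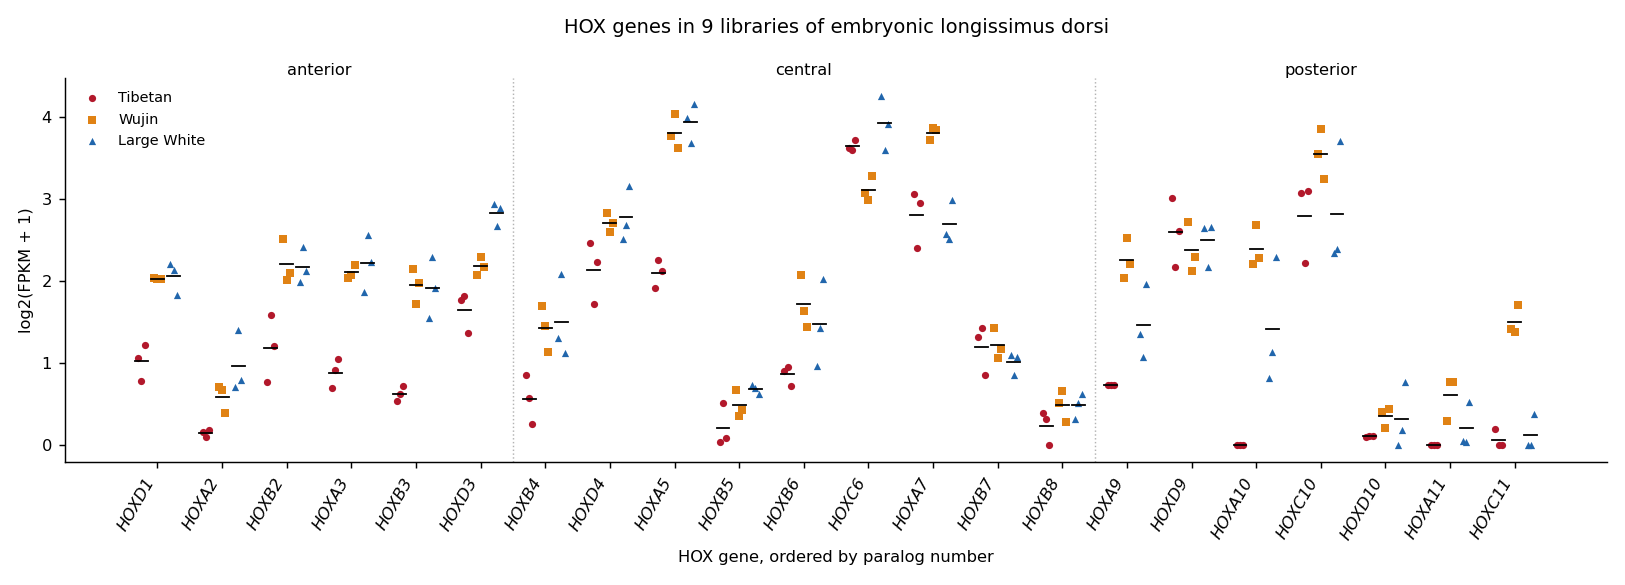
Level of 22 HOX genes as log2(FPKM + 1) in the 9 libraries, ordered by paralog number and divided into anterior, central and posterior groups. Symbols are libraries coloured by breed and bars are breed means. For HOXA10 and HOXC10, 1 Large White library lies with the Wujin libraries and the other two lie below them.

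HOXC10, a posterior gene of the lumbar region and hind limb, had the highest level of the posterior group in Wujin muscle, with 7.40, 3.65 and 7.54 FPKM in Tibetan, 10.7, 13.4 and 8.44 in Wujin and 4.04, 4.25 and 12.0 in Large White libraries. All Wujin values lay above all Tibetan values, and Large White spanned both. Tibetan minus Wujin was -0.75 ± 0.38 (relative -0.20, adjusted p = 0.110). Leaving out Large White 3, picked after its values were seen, lowered the shared estimate of the spread. The same difference was then -0.75 ± 0.26 (limma, adjusted p = 0.0335), which is no further support. HOXA10, the neighbouring lumbar gene of the A cluster, was listed at 0 in all 3 Tibetan libraries, at 3.60, 5.40 and 3.85 FPKM in Wujin and at 0.765, 1.19 and 3.91 in Large White. It was called lower in Tibetan muscle against both breeds (adjusted p = 0.00354 against Large White and 0.000188 against Wujin), and no fold is given against a group listed at 0. This direction was fixed, since HOXA10 passed the filter only through Wujin and Large White. Genes used by every cell, ACTB, PGK1 and SDHA, were above 0 in all 9 libraries, with lowest values of 302.7, 91.4 and 23.2 FPKM. At such levels they do not show whether a gene as low as HOXA10 would be detected.

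HOXA9 stood at 0.653, 0.662 and 0.655 FPKM in Tibetan, 3.08, 4.74 and 3.62 in Wujin and 1.55, 1.10 and 2.88 in Large White libraries, so that the 3 breeds did not overlap. It fell by 1.52 on the log2 scale against Wujin (SE 0.22, relative -0.97, adjusted p = 0.000262) and by 0.73 against Large White (SE 0.22, relative 0.04, adjusted p = 0.0144), and the latter call was lost after median-ratio scaling. HOXA9 passed the filter only through Wujin and Large White, which fixed the direction of its fall. HOXD9 went the other way, with 7.08, 3.51 and 5.07 FPKM in Tibetan, 5.58, 3.35 and 3.89 in Wujin and 5.27, 3.51 and 5.30 in Large White libraries. All 3 breeds overlapped, the fitted change against Large White was 0.10 ± 0.25 (relative 0.88, adjusted p = 0.715), and the scaled change was 0.91 ± 0.25 (adjusted p = 0.0110). Against Wujin the relative changes of these genes, which share a paralog number, were -0.97 for HOXA9 and 0.77 for HOXD9.

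Large White 3 had the highest Large White value for 7 of the 7 posterior HOX genes, for 5 of the 9 central and for 0 of the 7 anterior ones, as counted after the values were seen. The same library had the highest sum of 9 cartilage, bone and tendon markers, 315.9 FPKM against 232.9 and 129.1 in Large White 1 and 2, and the part of those cells in this pattern was not tested. Large White 3 also had the highest median over the genes tested, 7.20 FPKM. The part of the level along the back, which is not given, was not tested either. The other 7 HOX genes were below the filter. HOXC11, at the hind end of its cluster, stood at 1.67, 1.59 and 2.25 FPKM in Wujin, but 0.142, 0 and 0 in Tibetan and 0, 0 and 0.296 in Large White libraries. HOXA11 was listed at 0 in all Tibetan libraries and reached 0.224, 0.709 and 0.703 FPKM in Wujin and 0.0320, 0.0275 and 0.438 in Large White. HOXA2, HOXB5, HOXB8 and HOXD10 had breed means of 0.0760 to 0.996 FPKM, all lowest in Tibetan libraries.

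PBX2, PBX3 and PBX4, homeodomain cofactors that bind DNA beside HOX and MYOD1 proteins, were lower in Tibetan muscle against both breeds, also after median-ratio scaling. PBX3 and PBX4 passed the filter only through the other breeds, which fixed their direction, while PBX2 passed in all 3. PBX2 stood in Large White muscle at 48.7, 46.4 and 43.4 FPKM, against 19.9, 13.0 and 17.3 in Tibetan and 36.1, 42.2 and 40.4 in Wujin libraries. The Tibetan values did not overlap with the others. Its change was -1.43 ± 0.15 against Large White (relative -0.65, adjusted p = 2.77e-05) and -1.21 ± 0.15 against Wujin (relative -0.66, adjusted p = 0.000104). PBX3 stood at 0.775, 0.480 and 0.918 FPKM in Tibetan, 2.06, 3.00 and 3.06 in Wujin and 3.89, 4.41 and 4.40 in Large White libraries, a step at each breed. Its change against Large White, -1.61 ± 0.16 (relative -0.84), was beside that of PBX4, -1.29 ± 0.19 (relative -0.51). PBX4 stood at 0.107, 0.0860 and 0.300 FPKM in Tibetan, 0.980, 1.93 and 1.80 in Wujin and 2.26, 1.40 and 1.88 in Large White libraries, with overlap between the latter breeds. Its call against Large White was lost after quantile normalization (-0.33 ± 0.16, adjusted p = 0.0887). MEIS2, a cofactor of the TALE class that partners PBX, averaged 0.141 ± 0.0776, 0.780 ± 0.308 and 1.41 ± 0.322 FPKM and was below the filter. In the fit with no filter it was lower by -1.07 ± 0.15 against Large White (adjusted p = 0.000305) and -0.63 ± 0.15 against Wujin (adjusted p = 0.00700).

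Both MEOX genes, homeobox factors of the somite that gives rise to trunk muscle, were lower in Tibetan muscle, and MEOX2 far more so. MEOX2 stood at 7.68, 6.54 and 6.02 FPKM in Tibetan, 14.8, 27.1 and 33.9 in Wujin and 45.5, 43.5 and 48.3 in Large White libraries. The breeds formed 3 separate levels, with Wujin 1 nearest to Tibetan. The change was -2.60 ± 0.25 against Large White (relative -1.83, adjusted p = 1.44e-05) and -1.69 ± 0.25 against Wujin (relative -1.14, adjusted p = 0.000287). MEOX1 stood at 2.59, 2.63 and 2.61 FPKM in Tibetan, 5.21, 6.58 and 9.02 in Wujin and 7.73, 7.16 and 9.93 in Large White libraries. It fell by 1.35 on the log2 scale against Large White (SE 0.18, relative -0.58) and by 1.11 against Wujin (SE 0.18, relative -0.56). The ratio of MEOX2 to MEOX1, which scaling does not touch, was 2.96, 2.49 and 2.31 in Tibetan, 2.84, 4.12 and 3.76 in Wujin and 5.89, 6.08 and 4.87 in Large White libraries.

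In the sine oculis and eyes absent group, the EYA coactivators, which bind the homeobox proteins of the group, were the lowest against the median gene: EYA2 and EYA3 were lower in Tibetan muscle than in both other breeds, also after median-ratio scaling. EYA3 stood at 3.30, 2.45 and 3.26 FPKM in Tibetan, 6.75, 11.3 and 10.8 in Wujin and 15.3, 14.9 and 15.0 in Large White libraries. Its change was -2.01 ± 0.18 against Large White (relative -1.24, adjusted p = 9.49e-06) and -1.38 ± 0.18 against Wujin (relative -0.83, adjusted p = 0.000134). EYA2 followed at 0.303, 0.609 and 0.136 FPKM in Tibetan, 1.99, 2.87 and 2.32 in Wujin and 4.28, 4.42 and 4.12 in Large White libraries, with changes of -1.98 ± 0.16 (relative -1.21) and -1.34 ± 0.16 (relative -0.79). Its direction was fixed by the filter, which EYA2 passed only through Wujin and Large White.

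SIX2, a relative known from tendon and connective tissue, stood at 4.33, 4.62 and 4.11 FPKM in Tibetan, 7.03, 8.94 and 11.2 in Wujin and 10.2, 11.0 and 10.2 in Large White libraries. It fell by 1.10 on the log2 scale against Large White (SE 0.15, relative -0.33) and was not called after median-ratio scaling (-0.25 ± 0.13, adjusted p = 0.107). SIX4, a factor of embryonic muscle, averaged 2.88 ± 0.804, 3.08 ± 0.900 and 4.90 ± 0.711 FPKM. Its fall of -0.62 ± 0.21 against Large White (adjusted p = 0.0239) was lost without Tibetan 1, Large White 2 or Large White 3, and the scaled change was 0.15. SIX6, known from the eye and pituitary, was below the filter at 0.430 ± 0.0582, 0.189 ± 0.0962 and 0.177 ± 0.0801 FPKM.

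PITX3 and PRRX2 were both lower in Tibetan muscle as deposited, and less clearly so after scaling. PITX3, a homeobox factor switched on as myoblasts differentiate, stood at 4.33, 11.6 and 5.92 FPKM in Tibetan, 23.6, 18.7 and 15.7 in Wujin and 25.9, 20.0 and 23.3 in Large White libraries. Tibetan 2 was the highest of its breed but still below every other library. The change was -1.63 ± 0.29 against Large White (relative -0.86, adjusted p = 0.000674) and -0.73 ± 0.35 after median-ratio scaling (adjusted p = 0.0944). PRRX2, a factor of limb and connective tissue mesenchyme, stood at 3.70, 2.45 and 1.65 FPKM in Tibetan, 10.2, 7.94 and 12.7 in Wujin and 7.86, 8.87 and 6.43 in Large White libraries. It fell by 1.66 on the log2 scale against Wujin (SE 0.23, relative -1.11) and by 1.31 against Large White (SE 0.23, relative -0.53), and only the call against Wujin held after median-ratio scaling (-1.08 ± 0.24, adjusted p = 0.00386).

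The 3 tested T-box genes, TBX2, TBX3 and TBX18, all fell in Tibetan muscle, TBX18 by the most against either breed. TBX18 passed the filter only through Wujin and Large White, which fixed its direction. TBX18, known from the somite and from the precursors of mural and connective tissue cells, stood at 0.555, 0.656 and 0.540 FPKM in Tibetan, 2.17, 4.66 and 4.45 in Wujin and 4.40, 7.53 and 6.40 in Large White libraries. Its change was -2.14 ± 0.24 against Large White (relative -1.37, adjusted p = 3.95e-05) and -1.54 ± 0.24 against Wujin (relative -0.99, adjusted p = 0.000407). TBX2, a repressor that holds back cell cycle inhibitors, stood at 1.93, 1.12 and 1.46 FPKM in Tibetan, 5.13, 5.24 and 5.57 in Wujin and 4.57, 4.10 and 3.59 in Large White libraries. Wujin was the highest breed here, and the change was -1.34 ± 0.14 against Wujin (relative -0.79) and -1.03 ± 0.14 against Large White (relative -0.26). For TBX2 the call against Large White was lost after median-ratio scaling (-0.35 ± 0.14, adjusted p = 0.0509) and quantile normalization (-0.14 ± 0.14, adjusted p = 0.417). TBX3, the close relative of TBX2, stood at 1.65, 1.38 and 2.28 FPKM in Tibetan, 2.18, 3.60 and 3.52 in Wujin and 2.54, 4.41 and 2.83 in Large White libraries, with relative changes of 0.16 against Large White and -0.01 against Wujin. Its calls (-0.61 ± 0.22, adjusted p = 0.0277, and -0.56 ± 0.22, adjusted p = 0.0439) were both lost without Tibetan 1, without Tibetan 2 and after median-ratio scaling. The first was also lost without Large White 2, and the second without Wujin a, Wujin b, Large White 1 or Large White 3.

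All 3 TSHZ genes, zinc finger factors with a homeodomain that pattern the trunk, fell in Tibetan muscle, and TSHZ2 had the lowest fitted change of the 46 tested genes in both Tibetan comparisons. For TSHZ3 the direction was fixed, since it passed the filter only through Wujin and Large White. TSHZ2 stood at 1.53, 1.62 and 1.10 FPKM in Tibetan, 17.0, 10.6 and 12.6 in Wujin and 15.1, 14.4 and 13.8 in Large White libraries. The Tibetan values lay far below the other 6, which overlapped with each other. The change was -2.68 ± 0.17 against Large White (relative -1.91, adjusted p = 1.09e-06) and -2.55 ± 0.17 against Wujin (relative -2.0, adjusted p = 1.87e-06). TSHZ1 stood at 3.42, 3.86 and 5.89 FPKM in Tibetan, 7.78, 9.15 and 9.99 in Wujin and 10.8, 9.10 and 10.2 in Large White libraries, with relative changes of -0.29 and -0.36 and no call after median-ratio scaling. The ratio of TSHZ2 to TSHZ1 was 0.448, 0.420 and 0.186 in Tibetan libraries, 2.18, 1.15 and 1.26 in Wujin and 1.40, 1.58 and 1.35 in Large White. TSHZ3 stood at 0.265, 0.193 and 0.342 FPKM in Tibetan, 0.982, 1.60 and 1.30 in Wujin and 1.81, 2.98 and 1.88 in Large White libraries, a change of -1.33 ± 0.18 against Large White (relative -0.56) that was not called after quantile normalization (-0.37 ± 0.16, adjusted p = 0.0718).

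**Figure D4:**
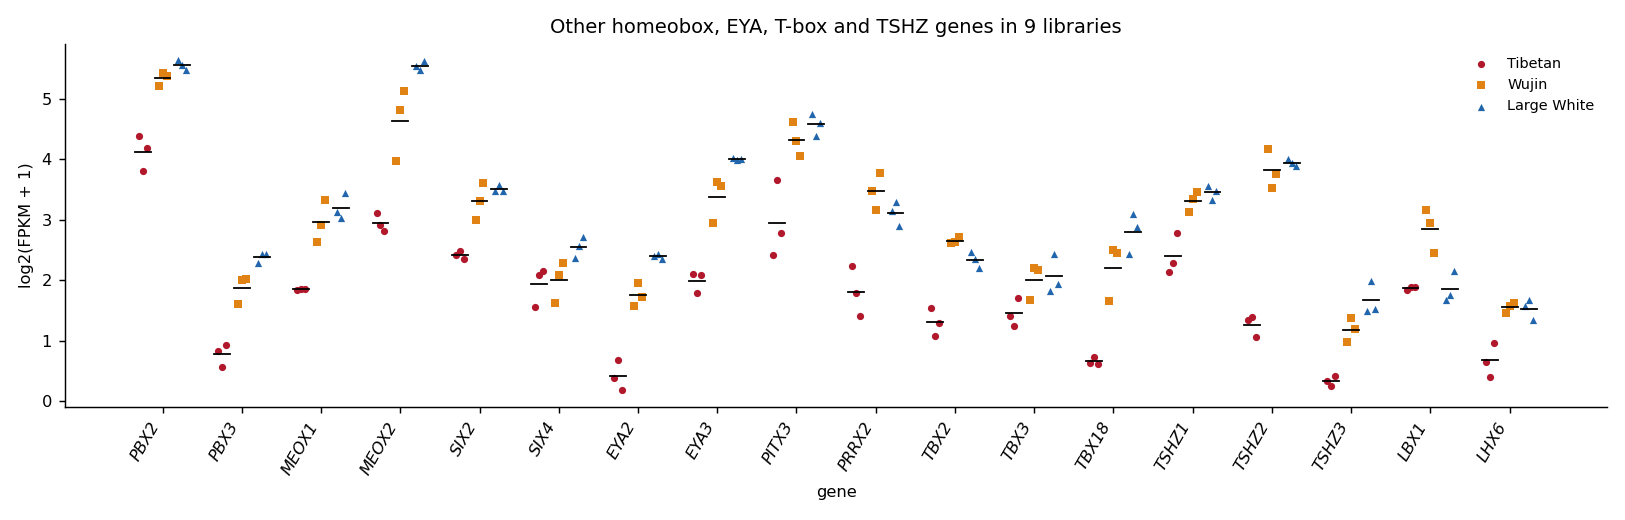
Level of 18 tested genes of the PBX, MEOX, sine oculis, EYA, PITX, PRRX, TBX, TSHZ, LBX and LHX families as log2(FPKM + 1) in the 9 libraries. Symbols are libraries coloured by breed and bars are breed means. EYA3 and MEOX2 step up from Tibetan to Large White, TSHZ2 is low in Tibetan libraries alone, and LBX1 is highest in Wujin.

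LBX1 and LHX6 were the tested LBX and LHX genes, and LBX1 was the member in which Wujin stood out. LBX1, which guides migrating muscle precursors to the limb and trunk wall, stood at 2.60, 2.71 and 2.73 FPKM in Tibetan, 7.95, 6.75 and 4.47 in Wujin and 2.20, 2.38 and 3.46 in Large White libraries. Tibetan and Large White overlapped, and every Wujin value was above both. Tibetan minus Wujin was -0.98 ± 0.20 (relative -0.43, adjusted p = 0.00179) but -0.40 ± 0.22 after median-ratio scaling (adjusted p = 0.152). LHX6, a LIM homeobox factor of jaw mesenchyme and brain, stood at 0.581, 0.331 and 0.950 FPKM in Tibetan, 1.75, 1.99 and 2.10 in Wujin and 2.0, 2.21 and 1.53 in Large White libraries. Tibetan values lay below the rest, and LHX6 was lower in Tibetan muscle by -0.86 ± 0.17 against Large White (relative -0.08) and -0.88 ± 0.17 against Wujin (relative -0.33). This direction was fixed, since LHX6 passed the filter only through Wujin and Large White. LBX2, LHX1, LHX2, LHX4, LHX8 and LHX9, most of them genes of the nervous system, had breed means of 0 to 0.262 FPKM. DLX1, DLX2 and DLX3, genes of the pharyngeal arches, limb ridge and forebrain, had means of 0 to 0.114 FPKM. MSX1, which holds precursors undifferentiated, averaged 0.766 ± 0.321, 0.754 ± 0.205 and 0.665 ± 0.117 FPKM and did not pass the test in any comparison with no filter.

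Among the forkhead genes FOXO1 rose in Tibetan muscle, the 1 gene of the 46 that did so against Large White. Against that breed, 5 of the 10 tested members fell and 4 were not called, where 63.2% of all genes tested fell. After median-ratio scaling 1 fell and 5 rose, where 33.0% of all genes fell and 32.4% rose. FOXO1, which drives atrophy and fasting genes in muscle when insulin signalling is low, stood at 21.3, 9.91 and 9.23 FPKM in Tibetan, 2.89, 3.61 and 3.49 in Wujin and 3.15, 3.31 and 3.38 in Large White libraries. Every Tibetan value was above all others, and Tibetan 1 was the highest. The change was 1.66 ± 0.26 against Large White (relative 2.44, adjusted p = 0.000329) and 1.65 ± 0.26 against Wujin (relative 2.20, adjusted p = 0.000429).

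The other FOXO genes did not pass the test as deposited. FOXO3, a close relative with overlapping targets, stood at 5.31, 4.87 and 8.07 FPKM in Tibetan, 2.63, 4.66 and 5.23 in Wujin and 5.40, 6.46 and 6.57 in Large White libraries, and its change against Large White was -0.03 ± 0.23 (relative 0.74, adjusted p = 0.899). FOXO4, the FOXO gene with the highest mean in each breed, stood at 14.7, 11.0 and 18.3 FPKM in Tibetan, 16.3, 22.8 and 21.4 in Wujin and 16.5, 13.9 and 14.1 in Large White libraries, with a change of -0.04 ± 0.19 (relative 0.74, adjusted p = 0.870). After median-ratio scaling both were higher than in Large White, by 0.81 ± 0.19 and 0.88 ± 0.16. The ratio of FOXO1 to FOXO4 was 1.45, 0.902 and 0.505 in Tibetan libraries, 0.178, 0.159 and 0.163 in Wujin and 0.191, 0.239 and 0.240 in Large White.

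FOXP1 and FOXP4, repressors of the P branch that act in lung, heart and lymphocyte development, were lower in Tibetan muscle. FOXP1 stood at 1.73, 2.03 and 1.29 FPKM in Tibetan, 4.84, 5.31 and 6.48 in Wujin and 5.31, 5.03 and 5.38 in Large White libraries, a change of -1.23 ± 0.14 against Large White (relative -0.46, adjusted p = 4.8e-05) that was not called after quantile normalization. FOXP4 averaged 1.86 ± 0.294, 4.66 ± 0.741 and 3.53 ± 0.673 FPKM, with relative changes of 0.11 against Large White and -0.43 against Wujin. FOXJ3, an activator of MEF2 genes in muscle, stood at 10.7, 10.1 and 9.62 FPKM in Tibetan, 15.1, 18.9 and 16.2 in Wujin and 16.6, 17.1 and 17.7 in Large White libraries. Its fall of -0.70 ± 0.11 against Large White was close to the shift of all genes (relative 0.07). FOXK1, a factor of muscle stem cells and autophagy, averaged 5.64 ± 1.26, 10.3 ± 0.703 and 10.9 ± 0.796 FPKM (relative -0.09), while its sister FOXK2 was not called (relative 0.68). FOXK2 stood at 11.2, 7.71 and 14.0 FPKM in Tibetan, 12.0, 11.7 and 11.2 in Wujin and 11.4, 11.0 and 12.0 in Large White libraries, which all overlapped. FOXN3, a checkpoint repressor, averaged 9.36 ± 0.563, 9.89 ± 0.485 and 8.35 ± 0.908 FPKM, and FOXN2 1.16 ± 0.152, 1.74 ± 0.448 and 2.47 ± 0.306 FPKM. After median-ratio scaling FOXK2 was called higher in Tibetan muscle, by 0.81 ± 0.18 against Large White and 0.57 ± 0.18 against Wujin. FOXN3 was called higher too, by 1.03 ± 0.14 and 0.61 ± 0.14. The FOXK2 change against Wujin was not called after quantile normalization (0.37 ± 0.15).

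**Figure D5:**
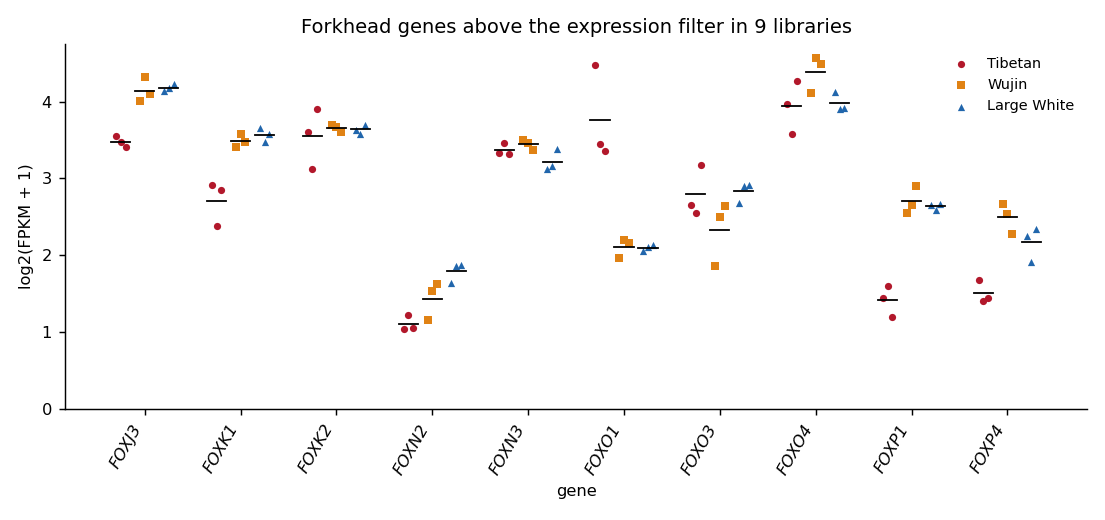
Level of the 10 tested forkhead genes as log2(FPKM + 1) in the 9 libraries, with symbols for libraries coloured by breed and bars for breed means. FOXO1 is the one gene with all 3 Tibetan libraries above the other 6, and FOXP1, FOXP4, FOXJ3 and FOXK1 show the opposite order.

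The remaining 13 forkhead genes were below the filter. FOXJ1, the switch for motile cilia, stood at 0.474, 0.874 and 0.473 FPKM in Tibetan, 0.0508, 0.0701 and 0.0445 in Wujin and 0.0254, 0.175 and 0.0542 in Large White libraries. In the fit with no filter it was higher by 0.56 ± 0.10 against Large White (adjusted p = 0.00113) and 0.60 ± 0.10 against Wujin (adjusted p = 0.000988). FOXA3, a liver factor, and SIX6 were also higher in Tibetan libraries in that fit, by 0.40 ± 0.08 and 0.28 ± 0.08 against Large White. FOXH1, FOXP2 and FOXP3 were lower against both breeds, with Tibetan means of 0.0255 to 0.120 FPKM, and FOXA2, FOXB2, FOXC2, FOXI1, FOXI2, FOXL1, FOXN1 and FOXR2 had breed means of at most 0.255 FPKM.

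The comparison of Wujin with Large White called few patterning genes. Of the 46, 2 were higher and 3 lower in Wujin muscle, where 1.67% of all genes tested were higher and 4.85% lower, and the median change was -0.08 against -0.20 over all genes. The 2 higher genes were HOXA7, by 1.12 ± 0.19 (relative 1.31, adjusted p = 0.0233), and LBX1, by 0.99 ± 0.20 (relative 1.19, adjusted p = 0.0317). The 3 lower genes were HOXC6, by -0.81 ± 0.17 (relative -0.61, adjusted p = 0.0347), HOXD3, by -0.65 ± 0.15 (relative -0.45, adjusted p = 0.0430), and EYA2, by -0.64 ± 0.16 (relative -0.45, adjusted p = 0.0485). Their values in each library, given above, did not overlap between these breeds. Leaving out single libraries ended these calls: HOXA7 was lost without Wujin a, Large White 1 or Large White 2, and without Wujin a or without Large White 1 none of the 5 was called.

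After median-ratio scaling 3 genes were higher in Wujin muscle, HOXA7 by 1.29 ± 0.17, LBX1 by 1.13 ± 0.22 and HOXA9 by 0.90 ± 0.19 (adjusted p = 0.00899, 0.0364 and 0.0429), where 1.86% of all genes were higher. None was called lower in that limma fit, where 1.27% of all genes were, and 6 were lower at an unadjusted p under 0.05. None of the 10 tested forkhead genes was called in the deposited values, and 1 was lower at an unadjusted p under 0.05. MEOX2 (-0.91 ± 0.25, adjusted p = 0.0607), EYA3 (-0.63 ± 0.18, adjusted p = 0.0665) and PBX3 (-0.51 ± 0.16, adjusted p = 0.0733) were lower in every Wujin library than in any Large White library without passing the test.

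The posterior genes HOXA9, HOXA10 and HOXC10 were higher in every Wujin library than in Large White 1 and 2. The changes were 0.97 ± 0.33 for HOXA10 (adjusted p = 0.0891), 0.79 ± 0.22 for HOXA9 (adjusted p = 0.0622) and 0.74 ± 0.38 for HOXC10 (adjusted p = 0.211). Without Large White 3 they were 1.41 ± 0.19 (adjusted p = 0.0272), 1.04 ± 0.18 (adjusted p = 0.0611) and 1.18 ± 0.29 (adjusted p = 0.131), so HOXA10 passed the test in that fit. HOXD9, the other tested posterior gene, stood at -0.12 ± 0.25 with Large White 3 and -0.03 ± 0.29 without it. Large White 3 was picked after its values were seen and held the highest Large White value of every posterior gene. Leaving it out therefore had to raise these changes, and the call of HOXA10 in that fit is no further support.

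With no filter on low values, 4 of the 84 genes were higher and 1 lower in Wujin muscle, where 1.25% and 3.21% of all genes were. Of those 4, HOXC11 (1.37 ± 0.13, adjusted p = 0.00371) and TBX5 (0.41 ± 0.08, adjusted p = 0.0328), the forelimb T-box gene, are below the filter. TBX5 stood at 0.191, 0.509 and 0.421 FPKM in Wujin, 0, 0.0411 and 0.0411 in Large White and 0, 0 and 0 in Tibetan libraries. TBX4, the hind limb T-box gene, stood at 0.179, 0.992 and 0.865 FPKM in Wujin, 0.0447, 0 and 0.115 in Large White and 0, 0.0442 and 0 in Tibetan libraries, and its difference from Large White did not pass (0.64 ± 0.17, adjusted p = 0.0715). All Wujin values of both genes lay above the values of the other breeds. TBX21, a factor of T helper cells, had breed means of 0.160, 0.284 and 0 FPKM, TBX22, a palate gene, 0, 0 and 0.199, and TBX19 and TBX20, known from the pituitary and heart, at most 0.0164 FPKM.

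The pathways around these factors were described by 4 lists, to be read against all genes tested, of which 63.2% fell and 13.0% rose against Large White as deposited (median -0.77), and 33.0% fell and 32.4% rose after median-ratio scaling (median -0.01). Of 17 tested retinoic acid genes, 14 fell and 2 rose in Tibetan against Large White muscle, with a median change of -1.51, and 10 fell and 3 rose after median-ratio scaling (median -0.69). CRABP2, which carries retinoic acid to its receptors, stood at 1.12 ± 0.680 FPKM in Tibetan, 81.8 ± 9.66 in Wujin and 101.6 ± 22.8 in Large White libraries. The receptor RARA averaged 8.35 ± 0.742, 26.8 ± 1.28 and 25.6 ± 0.881 FPKM. Against Wujin, 13 of the 17 fell and 1 rose, where 53.9% of all genes tested fell and 13.8% rose.

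Of 21 tested Polycomb and trithorax genes, 17 fell (median -0.84), and after median-ratio scaling 9 fell and 4 rose (median 0.01). CBX2, a reader of the Polycomb mark, averaged 0.280 ± 0.0209, 6.09 ± 0.439 and 8.21 ± 0.432 FPKM, EZH2, the enzyme that writes it, 0.590 ± 0.215, 6.22 ± 0.562 and 8.70 ± 0.136, and RNF2 1.48 ± 0.107, 9.54 ± 2.11 and 13.2 ± 0.519 FPKM. All 13 cell cycle markers fell too, and the part of dividing cells in these values was not tested. Against Wujin, 15 of the 21 fell and 2 rose, where 53.9% of all genes tested fell and 13.8% rose. Of the tested partners of sine oculis, EYA and PAX proteins, which number 6, 5 fell (median -0.88), and after median-ratio scaling 1 did (median -0.14). MYF5, the early myogenic factor, averaged 4.68 ± 1.49, 50.7 ± 6.02 and 46.9 ± 3.51 FPKM, and MYOD1, the determination factor, 25.7 ± 5.17, 54.4 ± 4.13 and 47.9 ± 0.810 FPKM. The fitted change of MYOD1 was -0.89 ± 0.14 and its scaled change 0.06.

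Most genes of the FOXO target list were higher in Tibetan muscle, as FOXO1 was. Of its 12 tested genes, 8 rose and 1 fell in Tibetan against Large White muscle (median 0.66), and 11 rose after median-ratio scaling (median 1.60). Against Wujin, 8 rose and 1 fell, where 13.8% of all genes tested rose and 53.9% fell. TRIM63, the muscle ubiquitin ligase MuRF1, stood at 92.3, 97.7 and 81.1 FPKM in Tibetan, 9.36, 11.6 and 9.80 in Wujin and 9.31, 7.61 and 5.33 in Large White libraries. PDK4, which shuts glucose out of the mitochondrion during fasting, averaged 59.8 ± 34.5, 0.786 ± 0.119 and 1.08 ± 0.337 FPKM, and the repressor BCL6 39.8 ± 15.1, 3.06 ± 0.735 and 3.88 ± 0.276 FPKM. Muscle fibre markers rose in the same libraries, 10 of 12, and their part in the rise of this list was not tested.

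Counts for the lists of other cell types between Tibetan and Large White muscle read against the same shares of all genes. All 11 tested fibroblast markers and all 6 cartilage, bone and tendon markers fell, in the deposited and the scaled values alike. Of 8 muscle progenitor markers, which include MYF5 and MYOD1, 7 fell and 1 rose, of 9 endothelial and mural markers 6 fell, of 3 nerve and Schwann cell markers 2 fell and 1 rose, of 4 leukocyte markers 1 fell, both tested erythroid markers fell, 2 of 3 skin and epithelium markers rose, and the 1 adipocyte marker was not called. After scaling 2 endothelial and mural markers fell and 3 rose, 2 leukocyte markers rose, and of the progenitor markers 5 fell and 1 rose. Against the genes known from connective tissue (PRRX2, TBX18, TSHZ2 and SIX2), the fibroblast marker COL1A2 averaged 48.8 ± 7.15, 1161.7 ± 233.6 and 1414.9 ± 69.9 FPKM in Tibetan, Wujin and Large White libraries. In Wujin against Large White muscle, 4 of 12 muscle fibre markers and 2 of 3 skin and epithelium markers were higher. So was 1 of 9 endothelial and mural markers, where 1.67% of all genes tested were higher. Lower in Wujin were 4 of 13 cell cycle markers and 1 of 11 fibroblast markers, where 4.85% of all genes were. No matched marker of any list was at 0 in all 9 libraries.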

How the data were processed

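RNA was extracted with Trizol and built into TruSeq libraries, per the labels' protocols. The submitters' processing notes name TopHat. Its version is not given in the sources used here, nor are the tool that computed FPKM, the build or the gene models. The authors deposited FPKM, which are already scaled to length and library size, per the file headers. Symbols came from a table of gene identifiers, and no positions or sequences are given. Genes averaging 1 FPKM or more (13106 of 19643) were fitted with limma 3.58.1 in R 4.3.3 on log2(deposited FPKM + 1), a scale that understates the change of low genes. One model of the 3 breed means (lmFit, contrasts.fit, eBayes with trend) gave the 3 pairwise comparisons and an F test, with Benjamini-Hochberg adjustment over all genes tested and calls at an adjusted p under 0.05. The procedure was tested on simulated data in which a small share of genes changed, with low genes not among them. That test does not cover changes in low genes or the shift of most genes in the Tibetan comparisons. Errors are SD for levels and SE for changes. FPKM do not give fragment counts, so no counting interval is possible.

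The members, the 4 pathway lists and 11 marker lists were chosen with earlier results of these data known. Levels in all 9 libraries are given for the 3 highest genes of a family and its largest changes, and at most 3 examples per list, those of smallest p. Further members with all 9 values, the pattern of Large White 3 and the ratios fall outside this rule and were picked after their values were seen. The settings varied were the pseudocount (0.1 or 5), the filter (none, or a mean of 5 FPKM), and the scaling, with median-ratio scaling, quantile normalization, and equal FPKM totals with and without the 50 highest genes. Others were a minimum absolute log2 change of 1, no trend, only the 6 samples compared, a replicate block and leaving out each library. Some genes of the families and lists are not reported here by name or value, but stay in the counts and sums.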

Additional observations from a re-analysis of the deposited data

How the results depend on the processing

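Against Large White, 11 of the 34 Tibetan calls held under every alternative in which the gene was tested, and against Wujin 18 of 36. Of the Wujin minus Large White calls 0 of 5 did. Those that held include EYA2, HOXA10, PBX3 and TBX18 in both Tibetan comparisons, and HOXA3, HOXA9, HOXB3 and PBX4 against Wujin. These genes passed the filter only through Wujin and Large White, which fixed their direction. None of them was tested at a mean of at least 5 FPKM. Counts are called, then higher and lower. Tibetan minus Large White (34, 1 and 33) gave 14 called and 13 lower at a mean of at least 5 FPKM, where fewer genes are tested, 20, 9 and 11 after quantile normalization, 11 and 17 after median-ratio scaling, 4 higher with no filter and 2 higher with equal totals without the 50 highest genes. With a minimum change of 1, 23 were called. Leaving out a library gave 32 to 35 called, 31 to 34 lower and 1 higher. Tibetan minus Wujin (36, 2 and 34) gave 16 called and 14 lower at a mean of at least 5 FPKM, 21, 1 and 20 with a minimum change of 1, 8 and 19 after quantile normalization, 6 and 21 after median-ratio scaling, 5 higher with no filter and 1 higher with equal totals. Leaving out a library gave 33 to 36 called, 1 to 2 higher and 32 to 34 lower. Wujin minus Large White (5, 2 and 3) gave 3 called and 1 lower with a pseudocount of 0.1, 9 and 6 lower with 5, 4 higher and 1 lower with no filter, 2, 1 and 1 at a mean of at least 5 FPKM, 3 called and 0 lower after median-ratio scaling, 6 higher and 0 lower after quantile normalization, 3 called and 1 lower with equal totals, 2 called and 0 lower without the 50 highest genes, and 1, 1 and 0 both with a minimum change of 1 and with only the 6 samples. Leaving out a library gave 0 to 5 called, 0 to 2 higher and 0 to 3 lower. The F test called 15 at a mean of at least 5 FPKM and 33 to 37 with a library left out. The cause of these moves was not tested.

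Some falls turned to a change above 0. After median-ratio scaling, Tibetan minus Large White was 0.0719 for TBX3, 0.0396 for FOXP4, 0.149 for SIX4, 0.143 for HOXD4, 0.00351 for FOXK1 and 0.204 for FOXJ3, and Tibetan minus Wujin 0.0163 for HOXD4, 0.0119 for HOXD3 and 0.0198 for FOXJ3. After quantile normalization, Tibetan minus Large White was 0.184 for HOXA9, 0.0744 for LHX6, 0.224 for FOXN2, 0.281 for TBX3, 0.231 for FOXP4, 0.252 for SIX4 and 0.195 for HOXD4, and Tibetan minus Wujin 0.0741 for TBX3, 0.0338 for HOXD4 and 0.110 for HOXD3.

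With a replicate block over the 6 numbered Tibetan and Large White libraries, 33 genes were called, 1 higher and 32 lower. The labels do not say whether equal numbers pair the samples. Deviations of same-numbered libraries correlated at 0.013, -0.0226 and -0.076, which cannot exclude a pairing. FPKM without fragment counts leave the precision of low genes unknown, and 24 of the 38 genes below the filter never reached 0.5 FPKM.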
